A study of Mus musculus with 66 samples.

Results

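The net change in gene expression of blood mononuclear cells (MNC) from the end of an oxygen exposure to recovery was measured in mouse pups of the oxygen-induced retinopathy model. The arrays were taken by their titles, 10 labelled P12 hyperoxia and 10 labelled P28 hyperoxia, which are 20 of the 66 arrays of the series. Of the 11 titles of P12 normoxia arrays 10 repeat mouse numbers of the P12 hyperoxia titles, and all 11 differ from the numbers carried by their deposited files, whereas 0 titles of the other groups do. The numbers carried by the files are 66 different ones. Groups follow the titles, and values that use P12 normoxia rest on them. All pups were C57BL/6, and no allele or transgene is named for any of them. From postnatal day 7 the hyperoxia pups were kept in 75% oxygen and the normoxia pups in 21%, and blood was taken on postnatal day 12, when the exposure ends in this model, or on day 17 or 28 after the return to room air. Mice of the 2 ages are different animals, and between these groups growth and recovery from oxygen cannot be told apart. The 11 arrays labelled P12 normoxia and the 11 labelled P28 normoxia, from pups of the same ages in 21% oxygen, are set beside it, and the 12 labelled P17 hyperoxia are given as an intermediate age. The labels do not tie pups to litters, so pups of 1 litter may share a group and the p-values measure the spread between these arrays.

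MNC are the cells that stay on top of a density gradient, mainly lymphocytes and monocytes, with some immature granulocytes, platelets and young red cells carried along. Over the weeks from birth to weaning blood formation in a mouse moves from liver and spleen to the marrow, naive lymphocytes fill the blood and spleen, natural killer cells gain their receptors, and new microbes reach the gut. This is background knowledge and not a result of these arrays. In a preparation of mixed cells, fewer cells of a type and less RNA per cell cannot be told apart.

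Each array compared the blood RNA with a universal mouse reference RNA that is the same on every array. All levels are therefore log2 ratios, blood over reference, and a difference of 1 is a factor of 2. The labels give the blood RNA as Cy5, but the intensities read the other way: alpha globin (Hba-a1) had a log2 intensity of at least 17.71 in Cy3 and of at most 11.99 in Cy5 on these 20 arrays. Cy5 was also the more uniform channel, its median correlation from array to array (Pearson r over probes) being 0.992 against 0.960 for Cy3. The level was thus taken as log2(Cy3/Cy5). If the labels were right, every direction below would turn round. A probe was tested where it was well above background on at least a share of 0.5 of the arrays of 1 age, and it was called at a Benjamini-Hochberg adjusted p under 0.05 in limma's moderated test. A ratio near 0 in a probe close to background says only that both channels were dim, and since an offset of 50 was added to both channels, changes of dim genes are understated.

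Of 29012 probes tested, 2883 were called between P12 and P28 after hyperoxia (9.94%), with 1767 higher and 1116 lower at P28, and 7586 had an unadjusted p under 0.05. With each gene represented by its probe of highest mean Cy3 intensity, 13957 genes were tested, 1033 were called higher (7.4%) and 627 lower (4.49%), and these shares are the background for the counts of each gene list. Most of the called changes were small, with a median size of 0.49 on the log2 scale, and 228 called genes changed by at least 1, 141 of them higher and 87 lower. With median centring in place of loess normalisation the number of called probes was 558, 313 higher and 245 lower. Of the genes named as called in the following, Aars, Aen, Bbc3, Ccl24, Cd2, Cd5, Cox5a, Cxcr4, F13a1, Gclc, Gp1ba, H2-Aa, H2-DMb1, H2-K1, H2-M3, Hk2, Hsph1, Itgax, Kit, Lef1, Lgalsl, Mdm2, Mest, Mki67, Pdgfa, Pdgfb, Pou2af1, Prdx6, Sesn1, Srebf2 and Tap1 kept their direction but were not called with median centring. With the microarray slide as a block in the fit Aen, Apol11b, Cd2, Ddit3, Gclc, Gp1ba, Hbb-bh1, Mest, Mki67, Pdgfa, Pou2af1, Prdx6, Stfa3 and Tmem140 were not called, and among the arrays of the first scan day alone Aen, Apol11b, Cd2, Ctsg, Ddit3, Gclc, Gp1ba, Kit, Mki67, Nqo1, Pdgfa, Pdgfb, Pou2af1 and Prdx6 were not. The 10 P12 arrays were less alike than the 10 P28 arrays, with a median Pearson r of the ratios of 0.865 (lowest 0.688) against 0.918 (lowest 0.837). The share of probes well above background was 49.6% ± 4.29 (SD, n = 10) at P12 and 46.8% ± 4.10 (n = 10) at P28, a difference that did not pass (2-sided permutation test, adjusted p = 0.149). For the RNA spiked into both channels the log2 ratio was 1.45 ± 0.29 (n = 10) at P12 and 1.15 ± 0.26 (n = 10) at P28, which did differ (permutation test, adjusted p = 0.0497). Among the arrays of the first scan day alone that difference was -0.15 (permutation test, adjusted p = 0.321), and its part in the changes was not tested. The reference channel alone gave 4 called probes. The defining markers of the labelled cells, Cd3e and Cd3d for T cells, Cd79a for B cells and Csf1r for monocytes, were well above background on 10 of 10 arrays at either age.

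The deepest falls belonged to the stefin A family, small inhibitors of cysteine proteinases that neutrophils make in quantity. For Stfa1 the lowest, median and highest log2 ratio were 2.82, 4.29 and 6.00 at P12 and 0.12, 0.20 and 0.68 at P28. The ages did not overlap, and the gene fell by 3.92 (SE 0.32, limma adjusted p = 5.6e-07), a 15.2-fold lower level. For Cstdc5 the corresponding values were 2.91, 4.35 and 6.35 at P12 and 0.08, 0.24 and 0.72 at P28, a fall by 4.06 (SE 0.34, adjusted p = 5.64e-07). Stfa2 fell by 3.03 (SE 0.32), Stfa2l1 by 2.35 (SE 0.32), Cstdc4 by 2.28 (SE 0.30) and Csta2 by 1.97 (SE 0.25), each with no overlap between the ages. These genes lie close to one another in sequence, and their probes may read each other's transcripts, so they are not 6 separate observations. At P28 the Stfa1 probe was well above background on 6 of 10 arrays and the Csta2 probe on 1 of 10, against 10 of 10 at P12, and the scanner software's own signals, which carry no offset, gave changes of -5.65 for Stfa1, -6.41 for Cstdc5, -4.15 for Stfa2, -4.70 for Stfa2l1, -4.85 for Cstdc4 and -6.15 for Csta2. The mean of Stfa1 at P17 was 2.05 ± 0.73, between the means at P12 and P28.

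The stefins make up 6 of the 12 greatest falls, and the others were of several kinds. Which genes make up the 12 depends on the processing. With the scanner software's signals the fall of Ccr3, which is not among them, was greater (-3.49) than that of Asns (-2.77) or Apoc1 (-2.20). Retnlg, a resistin-like secreted protein of neutrophils, went from 2.09, 4.64 and 5.33 (lowest, median, highest) at P12 to 0.54, 2.04 and 3.62 at P28, a fall by 2.12 (SE 0.44, limma adjusted p = 0.0049). With the scanner software's signals its change was -0.76 and was not called. Ccl24, a chemokine that draws eosinophils, had -0.38, 1.32 and 3.34 at P12 and -2.31, -1.28 and 1.07 at P28 and fell by 2.23 (SE 0.58, adjusted p = 0.0198), with overlapping ages. Apoc1, an apolipoprotein made by macrophages as well as liver, fell by 2.22 (SE 0.40, adjusted p = 0.00162), from a mean of 3.73 ± 1.16 to 1.51 ± 0.68. Fgfr1, a fibroblast growth factor receptor, fell by 2.33 (SE 0.58, adjusted p = 0.0144), but 1 of its 4 tested probes was called. The software's signals gave -3.66 for Ccl24 and -3.08 for Fgfr1. Atf5 and Asns, the remaining members of the 12, are described with the amino acid response.

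Among the 12 greatest rises stood genes of platelets, lymphocytes and macrophages. Ppbp, the platelet basic protein, had 0.84, 4.89 and 6.76 at P12 and 5.80, 6.95 and 7.91 at P28 (lowest, median, highest), and rose by 2.25 (SE 0.51, limma adjusted p = 0.00887). Its lowest P12 array, replicate 10, stood far under the others, and without that array the rise was 1.83. The same array was the lowest at P12 for Slc6a4, Mmp19, Sytl4 and Lgalsl, which rose by 1.58, 1.77, 1.73 and 1.61 without it. With the scanner software's signals Ppbp had a change of 1.06, Slc6a4 of 1.21 and Apol11b of 1.38, and these 3 were not called, while Sytl4 had a change of 2.60. Chil3, the chitinase-like protein Ym1 of macrophages and neutrophils, had -2.25, -0.98 and 1.06 and 0.16, 1.40 and 3.15, and rose by 2.24 (SE 0.42, adjusted p = 0.00205), a 4.73-fold higher level. Its mean at P17, -0.48 ± 0.79, was still close to the P12 mean of -0.74 ± 1.07. Mmp19, a matrix metalloproteinase, rose by 1.93 (SE 0.37), and Slc6a4, the serotonin transporter that platelets carry, by 1.80 (SE 0.39). Sytl4, which takes part in granule release, rose by 1.86 (SE 0.36). Dapl1 had 0.19, 0.66 and 1.36 at P12 and 2.10, 2.46 and 3.00 at P28, no overlap, and a rise by 1.89 (SE 0.14, adjusted p = 4.08e-07). Apol11b, Tmem140 and Lgalsl rose by 1.84, 1.83 and 1.80. Xpo7, a nuclear export receptor, rose by 1.79 (SE 0.28) at its brightest probe, but its other tested probe was called in the opposite direction, so no direction is given for the gene. Fcer2a and Ccl5 complete the 12 and are described with the lymphocytes.

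**Figure D1:**
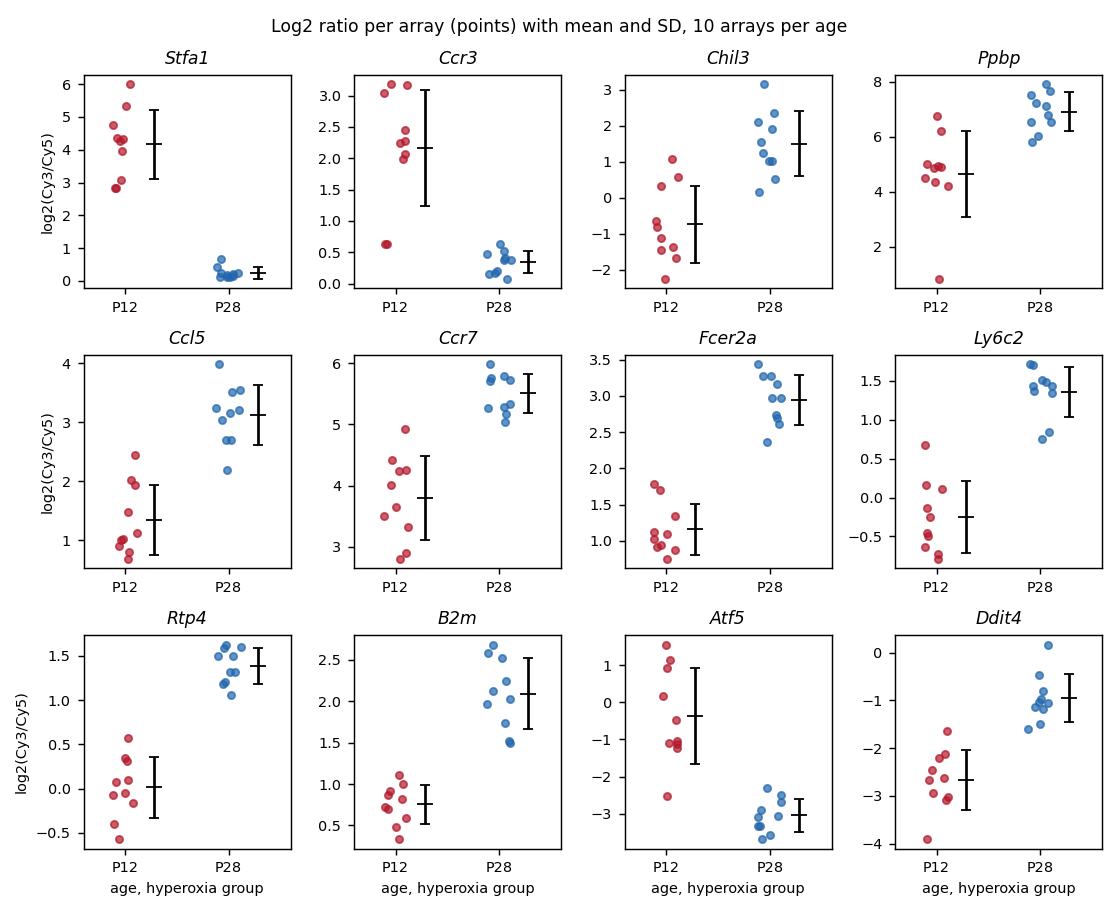
Log2(Cy3/Cy5) ratio of 12 genes on each P12 hyperoxia and P28 hyperoxia array (y axis, log2 units; points are arrays, 10 per age, bars mean and SD). Stfa1 and Ccr3 lie low at P28, where the arrays are tightly grouped, Ppbp has 1 low P12 array at 0.84, and the ages do not overlap for Fcer2a, Rtp4, B2m, Ccr7, Ly6c2 and Ddit4.

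Natural killer (NK) and cytotoxic cell genes rose. Of 15 tested members of that list 13 were called higher, none lower, with a median change of 0.63, against 7.4% of all tested genes called higher. Ccl5, a chemokine stored by cytotoxic cells, had 0.69, 1.08 and 2.44 at P12 and 2.19, 3.19 and 3.98 at P28, and rose by 1.79 (SE 0.24, limma adjusted p = 8.35e-05). Il2rb, a receptor chain for interleukin 2 and 15, had 1.03, 1.61 and 2.48 and 2.36, 3.11 and 4.09 and rose by 1.50 (SE 0.21, adjusted p = 0.000128). For both genes the ages overlapped at the edge, the highest P12 array lying above the lowest P28 array. Nkg7, a granule membrane protein, rose by 1.42 (SE 0.15, adjusted p = 6.98e-06) with no overlap, from 1.40, 1.56 and 2.39 to 2.72, 3.02 and 3.78. Perforin (Prf1), which opens the target cell's membrane, rose by 0.61 (SE 0.08, adjusted p = 9.87e-05), also with no overlap. The NK receptor Klrb1c rose by 0.76 (SE 0.16, adjusted p = 0.00429), with means of 0.44 ± 0.17, 0.44 ± 0.26 and 1.21 ± 0.49 on the successive days. Averaged over the list, the ratio was 0.95 ± 0.20 (SD, n = 10) on P12 arrays, 0.96 ± 0.28 (n = 12) on P17 arrays and 1.74 ± 0.33 (n = 10) on P28 arrays. Between 9 and 14 members were called under the other processing settings, but Nkg7 had a change of 0.33 with the scanner software's signals and was not called there, while that of Klrb1c was 1.79.

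T cell and B cell genes moved in part. Of 22 tested T cell genes 5 were called higher, none lower, with a median change of 0.38. The signalling chains of the T cell receptor were not among them: Cd3e had a change of 0.47 (SE 0.33, limma adjusted p = 0.389) and Cd3d of 0.71 (SE 0.34, adjusted p = 0.193). The Cd3d ratio lay between 1.23 and 5.11 at P12 and between 3.73 and 4.51 at P28, so the P12 arrays reached both under and over the narrow P28 group. The 5 called were Ccr7, Il7r, Cd5, Lef1 and Cd2, and 4 or 5 were called when single arrays were left out, and 2 (with median centring) to 9 (with array weights) under the other settings. The call of Cd2 was lost when any of 12 single arrays was left out. Ccr7, the chemokine receptor that guides cells into lymph nodes, had 2.80, 3.82 and 4.93 at P12 and 5.03, 5.53 and 5.99 at P28, with no overlap, and rose by 1.71 (SE 0.23, adjusted p = 9.02e-05). Il7r, the receptor for the survival factor interleukin 7, rose by 1.40 (SE 0.23, adjusted p = 0.000642), from 1.20, 2.01 and 2.99 to 2.49, 3.62 and 4.11. Cd5 rose by 1.02 (SE 0.28, adjusted p = 0.0248) and the transcription factor gene Lef1 by 0.87 (SE 0.24, adjusted p = 0.027).

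Among 18 tested B cell genes 4 were called higher, none lower, with a median change of 0.26. The B cell receptor partner Cd79a had a change of 0.32 (SE 0.14, limma adjusted p = 0.152), with ratios from 0.57 to 1.65 at P12 and from 0.87 to 2.11 at P28. The 4 called were Fcer2a, Cr2, Fcmr and Pou2af1, whereas Cd22 had a change of 0.15 (adjusted p = 0.674) and Cxcr5 of 0.41 (adjusted p = 0.297). Fcer2a (CD23), the low-affinity receptor for immunoglobulin E, had 0.75, 1.06 and 1.78 at P12 and 2.36, 2.97 and 3.44 at P28, with no overlap, and rose by 1.79 (SE 0.15, adjusted p = 5.64e-07). Cr2 (CD21), a complement receptor, rose by 1.21 (SE 0.15, adjusted p = 4.76e-05), again without overlap, from 0.57, 1.16 and 1.67 to 1.71, 2.34 and 2.85, and all 3 of its probes were called higher. Fcmr, the receptor for immunoglobulin M, rose by 0.97 (SE 0.18, adjusted p = 0.00169) and Pou2af1, a coactivator of B cell transcription, by 0.62 (SE 0.17, adjusted p = 0.0278). With the scanner software's signals Fcer2a had a change of 0.26 and Fcmr of 0.39, and neither was called, while Cr2 had a change of 1.89. Of 10 tested genes of B cell precursors and plasma cells none was called. Dntt, which adds bases to receptor joints in precursors, had a change of -1.74 (SE 0.81, adjusted p = 0.179), and its P12 arrays spread from -0.30 to 6.06. Vpreb1, part of the surrogate light chain, had a change of -0.37 (SE 0.13, adjusted p = 0.0818).

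Of 17 tested monocyte genes 6 were called higher, none lower, with a median change of 0.45. Ly6c2, a surface protein of classical monocytes, had -0.79, -0.35 and 0.67 at P12 and 0.75, 1.43 and 1.71 at P28, with no overlap, and rose by 1.61 (SE 0.17, limma adjusted p = 6.98e-06). Its close copy Ly6c1 and its presence on some T cells limit the reading of this probe. F13a1, a coagulation factor subunit found in monocytes and platelets, rose by 1.17 (SE 0.28, adjusted p = 0.0121). Ms4a6c rose by 0.98 (SE 0.18, adjusted p = 0.002), the receptor gene Cd300e by 0.88 (SE 0.14, adjusted p = 0.000516) and Ace, the angiotensin converting enzyme that patrolling monocytes carry, by 0.54 (SE 0.10, adjusted p = 0.00215). The receptor for the monocyte growth factor, Csf1r, had a change of -0.41 (SE 0.27, adjusted p = 0.349), with overlapping ages. Of 10 tested dendritic cell genes 1 was called, Itgax (CD11c), higher by 0.48 (SE 0.13, adjusted p = 0.0206), while the progenitor receptor Flt3 had a change of 0.13 (SE 0.07, adjusted p = 0.299). Between 1 and 3 dendritic cell genes were called higher when single arrays were left out, and 0 to 2 under the other settings. The scanner software's signals gave a change of 1.38 for Ace.

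Granulocyte genes fell, but not as a whole. Of 27 tested neutrophil genes 8 were called lower and 1 higher, Chil3, with a median change of -0.38, against 4.49% of all tested genes called lower. Of the 8, 5 were the stefins Cstdc5, Stfa1, Stfa2, Stfa2l1 and Stfa3, whose probes may read each other's transcripts, so they are not 5 separate observations. The others were Retnlg, Mmp9 and Ctsg, which was not called with the scanner software's signals (a change of -1.24, adjusted p = 0.0603). S100a8, a subunit of calprotectin that mature neutrophils and monocytes hold in bulk, had 2.71, 4.02 and 5.74 at P12 and 1.77, 3.23 and 4.48 at P28, a change of -0.80 (SE 0.43, limma adjusted p = 0.251) that did not pass.

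Of 13 tested genes of eosinophils, basophils and mast cells 9 were called lower and none higher, with a median change of -0.39, and between 8 and 11 were called lower under every setting tried. Ccr3, the receptor that eosinophils use to follow eotaxins, had 0.63, 2.26 and 3.18 at P12 and 0.08, 0.38 and 0.63 at P28, and fell by 1.83 (SE 0.28, adjusted p = 0.000393). The 2 lowest P12 arrays lay at the top of the P28 range, and the other 8 lay above it. Siglecf, an eosinophil lectin, fell by 1.44 (SE 0.24, adjusted p = 0.000697). Prg2, the eosinophil major basic protein, had 0.36, 1.77 and 2.50 and -0.06, 0.07 and 0.21, with no overlap, and fell by 1.49 (SE 0.20, adjusted p = 7.78e-05), and at P28 it was well above background on 3 of 10 arrays. The basophil proteases Mcpt8 and Prss34 fell by 1.07 (SE 0.14, adjusted p = 9.02e-05) and 0.44 (SE 0.07, adjusted p = 0.000446). The scanner software's signals gave changes of -3.49 for Ccr3, -3.36 for Siglecf, -3.01 for Prg2 and -2.59 for Mcpt8, and for Prss34 a change of -0.98 that was not called (adjusted p = 0.0578). At P17 the mean of Ccr3 was 0.58 ± 0.47 and that of Siglecf 0.52 ± 0.38, both nearer to P28 than to P12. Averaged over the list, the ratio was 1.01 ± 0.27 (n = 10) on P12 arrays, 0.50 ± 0.20 (n = 12) on P17 arrays and 0.33 ± 0.10 (n = 10) on P28 arrays.

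Platelet genes had higher ratios at P28, but the spread between P12 arrays was wide. Of 14 tested members 13 had a positive change, with a median of 1.04, and 2 were called higher, Ppbp and Gp1ba, the call of Gp1ba being lost when any of 12 single arrays was left out. The platelet factor 4 gene Pf4 had 0.14, 3.99 and 5.52 at P12 and 3.67, 4.66 and 5.60 at P28, a change of 0.88 (SE 0.47, limma adjusted p = 0.244). Gp6, a collagen receptor of platelets, had a change of 1.37 (SE 0.47, adjusted p = 0.0659). The mean ratio over the list lay between 0.37 and 4.62 at P12 and between 2.97 and 5.16 at P28. The number of members called was 1 to 5 when single arrays were left out, and 0 to 3 under the other settings.

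None of 27 tested erythroid genes and none of 12 haem synthesis genes was called by limma, where 7.4% of all genes were called higher and 4.49% lower. Leaving out single arrays or changing the settings gave at most 1 called member in each direction. Of the 27 erythroid genes 24 had a positive change and 3 a negative one, with a median of 0.19. The mean ratio over the erythroid list was 3.46 ± 0.60 (n = 10) at P12 and 3.72 ± 0.43 (n = 10) at P28, with ranges of 2.51 to 4.24 and 3.18 to 4.29. Tfrc, the transferrin receptor of young red cells, had a change of -0.60 (SE 0.23, adjusted p = 0.102), and Nfe2, a transcription factor of red cells and platelets, of 0.77 (SE 0.25, adjusted p = 0.0532). Entering the erythroid mean as a covariate left 3195 called probes, of which 2487 were among the 2883. The embryonic beta-like globins Hbb-y and Hbb-bh1 were called higher at P28, by 0.51 (SE 0.11, adjusted p = 0.00582) and 0.33 (SE 0.07, adjusted p = 0.00735). Their ratios were low, -0.01, 0.08 and 0.21 and 0.18, 0.39 and 0.85 for Hbb-bh1, and the scanner software's signals gave changes of 1.44 for Hbb-y and 1.76 for Hbb-bh1. The call of Hbb-bh1 was lost with slide as a block, and cross-hybridisation with the adult globins, which have similar sequence and were by far brighter, was not tested.

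Interferon response genes rose. Of 31 tested members 19 were called higher and none lower, with a median change of 0.74, and 13 to 22 were called higher under the other settings. Interferons, the signals of antiviral defence, switch these genes on through a short DNA element near the start of the gene. Rtp4 had -0.57, 0.01 and 0.57 at P12 and 1.05, 1.40 and 1.63 at P28, with no overlap, and rose by 1.37 (SE 0.12, limma adjusted p = 1.24e-06). Ifi27l2a had 0.67, 1.19 and 2.13 and 2.62, 3.02 and 3.48, and rose by 1.71 (SE 0.15, adjusted p = 1.36e-06). These genes, Xaf1 (a rise by 1.20, SE 0.11) and Ifit1 (a rise by 1.20, SE 0.19) all had every P28 array above every P12 array. The scanner software's signals gave a greater rise for Ifit1, which was called there too. Ifit2 had a change of 0.49 (SE 0.16, adjusted p = 0.0557) and missed the threshold. At P17 the mean of Rtp4 was 0.32 ± 0.31, between the means at P12 and P28.

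The promoters of members that rose are shown because they hold letters of the interferon element. In the 250 bases before the RefSeq start sites (GRCm38.p6), the motif GAAANNGAA was searched on both strands. It was present in 15 of the 25 tested interferon genes with a promoter in the RefSeq set (60%), and in 8.18% of 27018 genes in all. The motif was chosen with the results known, its matches on 1 strand may overlap, and a match is a description and not a site. The stretches below run in the direction of the gene, with capitals for the matched letters, from chr5:120907526-120907570 for Oas1a (minus strand), chr19:34640755-34640838 for Ifit1 (plus strand) and chr11:58199497-58199555 for Igtp (plus strand).
Oas1a: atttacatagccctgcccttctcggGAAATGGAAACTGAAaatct
Ifit1: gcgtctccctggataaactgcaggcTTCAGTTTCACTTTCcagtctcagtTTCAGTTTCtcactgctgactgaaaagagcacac
Igtp: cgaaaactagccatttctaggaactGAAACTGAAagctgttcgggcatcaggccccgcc
Oas1a rose by 1.52 and Igtp by 1.39, and both were picked for display after their values were seen. Of the 13 called members with a promoter there, a match was held by 7.

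Antigen presentation genes rose as well. In the list of class I genes of the major histocompatibility complex 8 of 14 tested members were called higher, none lower, with a median change of 0.50. B2m, the light chain that all class I molecules share, had 0.34, 0.77 and 1.11 at P12 and 1.50, 2.08 and 2.69 at P28, with no overlap, and rose by 1.34 (SE 0.15, limma adjusted p = 9.63e-06). Nlrc5, the transactivator of class I genes, rose by 1.07 (SE 0.12, adjusted p = 8.52e-06), and Tap1, which pumps peptides to class I molecules, by 0.62 (SE 0.08, adjusted p = 3.97e-05). H2-M3, which presents formylated peptides, had -0.74, -0.47 and -0.22 and 0.07, 0.35 and 0.49 and rose by 0.79 (SE 0.07, adjusted p = 6.75e-07). The heavy chain gene H2-K1 rose by 0.66 (SE 0.13, adjusted p = 0.00233), with the limit that class I heavy chains are near copies of one another. Of 9 tested class II genes 7 were called higher, with a median change of 0.66. H2-Ob, a subunit of a molecule that regulates peptide loading in B cells, rose by 1.38 (SE 0.21, adjusted p = 0.000274), and H2-DMb1, a peptide loading subunit, rose by 0.85 (SE 0.12, adjusted p = 9.7e-05) with no overlap. The chain gene H2-Aa rose by 0.90 (SE 0.22, adjusted p = 0.0136). With median centring in place of loess the number called was 2 in class I and 1 in class II, and H2-Aa and H2-Ob were not called with the scanner software's signals, where the change of H2-Ob was 0.77 and that of Nlrc5 1.66.

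**Figure D2:**
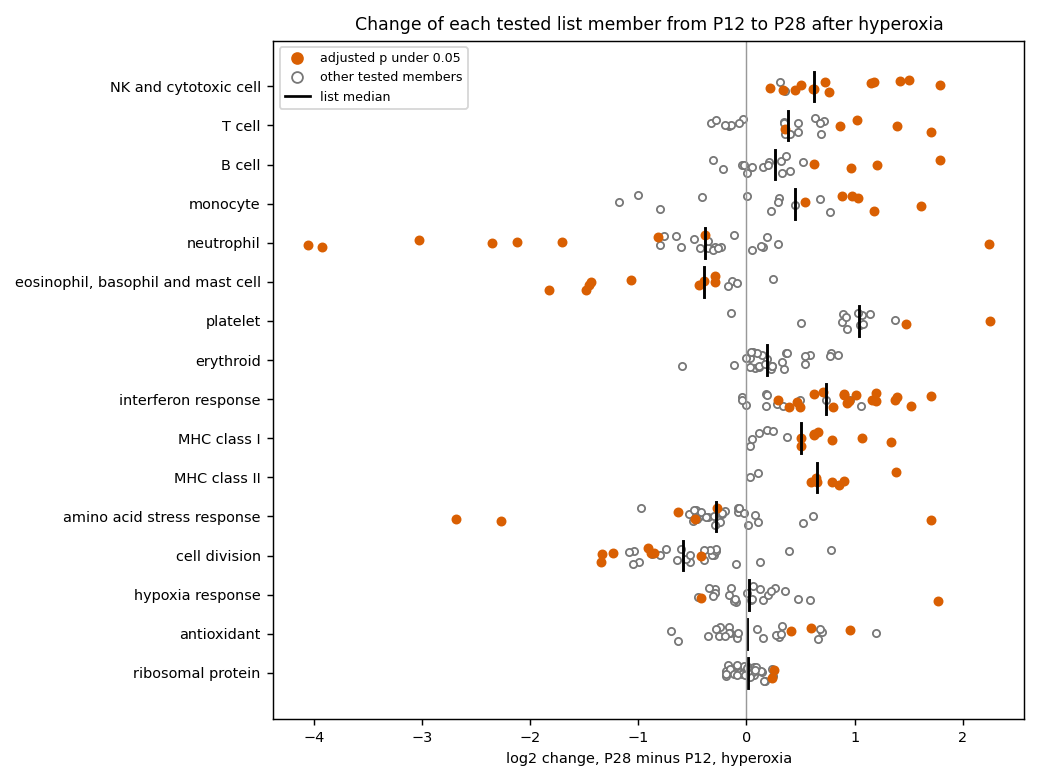
Log2 change from P12 to P28 after hyperoxia (x axis) of every tested member of 16 gene lists (rows); filled points passed an adjusted p under 0.05 and the bar is the list median. NK and class II members all lie to the right of 0 and interferon members mostly so, while 12 of 13 eosinophil, basophil and mast cell genes lie to the left. Of 27 erythroid members 24 lie to the right with 0 called, and ribosomal members lie on both sides with 2 called.

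The genes of the amino acid response fell in part. In this response, a shortage of amino acids or a stressed endoplasmic reticulum raises the factor ATF4, which switches on amino acid synthesis, transporters and transfer RNA synthetases. Of 32 tested members 5 were called lower and 1 higher, with a median change of -0.28. Atf5, a transcription factor made under the same control as ATF4, had -2.53, -0.75 and 1.56 at P12 and -3.68, -3.09 and -2.30 at P28, and fell by 2.68 (SE 0.41, limma adjusted p = 0.00035), a 6.42-fold lower level. Only the lowest P12 array reached into the P28 range. Asns, asparagine synthetase, had -3.38, -1.47 and 0.97 and -4.33, -3.58 and -1.72, and fell by 2.27 (SE 0.50, adjusted p = 0.00724), with 1 of its 2 tested probes called. Aars, an alanyl transfer RNA synthetase, fell by 0.63 (SE 0.09, adjusted p = 0.000135) with no overlap, and Ddit3 (CHOP) by 0.27 (SE 0.07, adjusted p = 0.0235), a call lost in 3 settings, with slide as a block, among the arrays of scan day 1 and with all 6 groups in the fit. The number of members called lower was 4 to 7 when single arrays were left out and 3 to 8 under the other settings. Atf5 and Asns did not fall steadily: for Atf5 the means of P12, P17 and P28 were -0.37 ± 1.29, 1.94 ± 1.32 and -3.05 ± 0.45, and for Asns -1.12 ± 1.45, -0.27 ± 1.50 and -3.40 ± 0.83. The member called higher was Ddit4 (REDD1), an inhibitor of mTOR signalling that glucocorticoids and low oxygen also raise, with -3.90, -2.64 and -1.64 at P12 and -1.59, -1.04 and 0.17 at P28, no overlap and a rise by 1.71 (SE 0.24, adjusted p = 0.000166).

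The letters of the ATF4 element, TGATGNAAN on either strand, were looked for in the same 250 bases. They were present in 8 of 27 members with a promoter there (29.6%) and in 3.89% of 27018 genes in all. Of the 6 called members 2 held them, Asns and Aars, and these are shown in the direction of the gene with the matched letters in capitals, from chr6:7693210-7693257 (minus strand) and chr8:111033704-111033762 (plus strand) of GRCm38.p6.
Asns: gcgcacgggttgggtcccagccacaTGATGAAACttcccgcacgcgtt
Aars: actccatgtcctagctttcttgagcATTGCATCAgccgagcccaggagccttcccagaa
In Asns the match begins 23 bases before the start site, in Aars 113 bases before it. The windows of the other 4 called members hold no match, which says nothing about the factor.

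Cell division genes had lower ratios at P28, near the limit of the test. Of 30 tested members 27 had a negative change, with a median of -0.59, and 7 were called lower. That count was 1 to 16 when single arrays were left out (16 without P12 replicate 3) and 0 with median centring, with Cy3 alone, with slide as a block and among the arrays of scan day 1, so it depends on the setting. With n = 10 per age, Mki67, the antigen Ki-67 of dividing cells, had -1.22, 0.17 and 1.10 at P12 and -1.33, -0.85 and 0.15 at P28, and fell by 0.91 (SE 0.25, limma adjusted p = 0.0254), a call that held when any single array was left out but not in 4 of the other settings. The mean ratio over the list was -0.79 ± 0.71 (n = 10) at P12 and -1.38 ± 0.24 (n = 10) at P28, the P12 arrays being far more spread.

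In the list of fetal and progenitor genes 4 of 13 tested members were called lower and 1 higher. Igf2bp3, an RNA-binding protein of the fetal blood programme, had 0.17, 0.39 and 0.96 at P12 and -0.88, -0.69 and -0.52 at P28, with no overlap, and fell by 1.21 (SE 0.10, limma adjusted p = 5.97e-07) at 1 of its 2 tested probes. Arid3a, a transcription factor of fetal and B-lineage cells, fell by 0.91 (SE 0.15, adjusted p = 0.000712), and Cdkn1c, an imprinted inhibitor of the cell cycle, by 1.06 (SE 0.23, adjusted p = 0.00682). Kit, the stem cell factor receptor, fell by 0.33 (SE 0.09, adjusted p = 0.0212). The imprinted gene Mest went the other way, with a rise by 1.13 (SE 0.29, adjusted p = 0.0184). The scanner software's signals gave changes of -2.01 for Cdkn1c, -1.48 for Kit and 2.18 for Mest. The mean of Igf2bp3 at P17 was -0.12 ± 0.39.

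Of 24 tested hypoxia response genes 1 was called higher and 1 lower, with a median change of 0.02, against 7.4% and 4.49% of all genes. Vegfa, the vessel growth factor that hypoxia raises, had -2.96, -2.27 and -1.63 at P12 and -3.12, -2.62 and -2.19 at P28, a change of -0.31 (SE 0.15, limma adjusted p = 0.202), and the glucose transporter gene Slc2a1 a change of 0.13 (SE 0.13, adjusted p = 0.611). Ndrg1 rose by 1.77 (SE 0.38, adjusted p = 0.00582) and the hexokinase gene Hk2 fell by 0.42 (SE 0.09, adjusted p = 0.00504). Of 26 tested antioxidant genes 3 were called higher, Nqo1, Gclc and Prdx6, with a median change over the list of 0.01. The call of Prdx6 was lost when any of 4 single arrays was left out, that of Gclc without 1. Nqo1, a quinone reductase, rose by 0.60 (SE 0.16, adjusted p = 0.0224). Haem oxygenase (Hmox1) had a change of -0.69 (SE 0.26, adjusted p = 0.097). The antioxidant count was 0 among the arrays of scan day 1 and 1 to 6 under the other settings, and 0 to 3 were called lower there, with 1 higher and 3 lower when slide was a block. When single arrays were left out, 1 to 4 antioxidant genes were called higher and 0 to 2 lower, and 1 or 2 hypoxia response genes were called in each direction. The scanner software's signals gave changes of -1.02 for Hk2 and 1.78 for Nqo1.

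Of 20 tested vessel growth factors and receptors 4 were called higher, Angpt1, Cxcr4, Pdgfa and Pdgfb, and none lower, the call of Pdgfa being lost when any of 15 single arrays was left out. Under the other settings 1 to 5 were called higher and 0 to 2 lower (2 lower with slide as a block), and 0 to 2 were called lower when single arrays were left out. Angpt1, the ligand of the endothelial receptor Tie2, which platelets also carry, had -0.17, 0.22 and 1.10 at P12 and 0.59, 2.07 and 3.19 at P28, and rose by 1.54 (SE 0.30, limma adjusted p = 0.00301). Cxcr4, a homing receptor of blood cells, rose by 0.61 (SE 0.10, adjusted p = 0.000858) with no overlap. Pdgfb rose by 0.33 (SE 0.08, adjusted p = 0.0197). Deptor, an inhibitor of mTOR that the study singles out in blood at P17, had -0.84, -0.46 and 0.27 at P12 and -0.69, -0.52 and -0.35 at P28, a change of -0.15 (SE 0.11, adjusted p = 0.418). Nol4, singled out with it, was well above background on 0 of 10 arrays at either age and was not tested. Of 15 tested genes taken from those that the study names in blood at P17, a list chosen on arrays of this series and not a full one, 3 were called lower and 1 higher. Serpina11, a serine protease inhibitor, fell by 0.96 (SE 0.19, adjusted p = 0.00316). The scanner software's signals gave changes of 2.66 for Angpt1 and -1.55 for Serpina11.

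Of 31 tested ribosomal protein genes 2 were called, both higher and by at most 0.25, and of 29 respiratory chain genes 2 were called higher and 2 lower. When single arrays were left out, 0 to 2 ribosomal protein genes were called higher, and 1 to 2 respiratory chain genes higher and 2 to 4 lower, and with median centring all these counts were 0. Cox5a, a subunit of cytochrome oxidase, rose by 0.93 (SE 0.24, limma adjusted p = 0.0203). In the heat shock list 1 of 12 was called, Hsph1, a rise by 0.73 (SE 0.12, adjusted p = 0.00048), with a P17 mean of -0.29 ± 0.25, as high as at P28 (-0.39 ± 0.32). Of 15 genes of protein folding in the endoplasmic reticulum 1 was called lower, and Hspa5, its main chaperone, had a change of -0.37 (SE 0.19, adjusted p = 0.228). The number of these folding genes called lower was 0 to 2 when single arrays were left out. Under the other settings it was 0 to 3, with 3 when slide was a block. Of 17 tested genes of the p53 list 2 were called higher and 2 lower. Sesn1 rose by 0.85 (SE 0.15, adjusted p = 0.00153) and Bbc3 (PUMA) by 0.56 (SE 0.11, adjusted p = 0.00215), whereas Mdm2, which encodes the ligase that targets p53, fell by 0.43 (SE 0.10, adjusted p = 0.0126) and Aen, an exonuclease gene, by 0.29 (adjusted p = 0.049). The call of Aen was lost when any of 16 single arrays was left out and in 15 of 17 other settings. Of 19 cholesterol synthesis genes 2 were called higher, of which the regulator gene Srebf2 rose by 0.26 (SE 0.06, adjusted p = 0.00944), a call lost with the scanner software's signals (0.74, adjusted p = 0.0511). Of 12 tested markers of heart, liver, lung, skeletal muscle and endothelium 1 was called lower and 1 higher, Afp, alpha-fetoprotein, with a rise by 0.77 (SE 0.11, adjusted p = 0.000132) at ratios of -1.17, -0.68 and -0.41 and -0.39, 0.03 and 0.42, and the other 12 listed markers, Alb among them, did not pass the filter on dim probes. With the scanner software's signals the change of Afp was 2.36. None of 5 sex-linked genes was called, and the Y-linked gene Eif2s3y was well above background on 5 of 10 arrays at P12 and 4 of 10 at P28.

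The same ages were compared in pups kept in room air. The P12 normoxia group has the mismatched mouse numbers given above, whose part in these values was not tested. Between P12 normoxia and P28 normoxia (11 arrays each, none shared with the comparison above) 2275 of 25599 probes were called by limma (8.89%), and among genes 850 were called higher (6.53%) and 477 lower (3.66%). Of 25381 probes tested in both comparisons 2829 were called after hyperoxia and 2272 in normoxia, and 1311 were called in both, 46.3% of the first set and 57.7% of the second, each of them in the same direction. Of the 2829 probes 2800 had the same sign in normoxia, and their median size was 0.45 after hyperoxia and 0.32 in normoxia, where the probes had been chosen on the first. A test of the difference between the changes called 0 of 29230 probes (0%), with a smallest adjusted p of 0.655 and 881 probes at an unadjusted p under 0.05, and every other setting gave 0 calls too. This does not show that the changes are equal.

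Stfa1 fell by 3.63 in normoxia and by 3.92 after hyperoxia, with a difference of -0.30 (95% interval -1.34 to 0.74). Chil3 rose by 1.68 in normoxia (difference 0.56, interval -0.65 to 1.76) and Rtp4 by 1.52 (difference -0.15, interval -0.52 to 0.23). In these 3 genes the interval held 0. Among the genes described, the gap was widest for Atf5 and Asns. Atf5 fell by 4.33 in normoxia against 2.68 after hyperoxia (difference 1.65, interval 0.32 to 2.98) and Asns by 3.68 against 2.27 (difference 1.41, interval 0.04 to 2.78). Atf5 was at -0.37 ± 1.29 in P12 hyperoxia and 1.28 ± 1.61 in P12 normoxia, and at -3.05 ± 0.45 and -3.06 ± 0.49 at P28. The P12 groups also had erythroid mean ratios of 3.46 ± 0.60 (hyperoxia, n = 10) and 4.18 ± 0.63 (normoxia, n = 11), with 49.6% and 43.9% of probes well above background, and the median difference was 0.31 over the erythroid list and 0.37 over the haem synthesis list. The part of these in the differences of single genes was not tested. In the amino acid response list 13 of 29 tested members were called lower in normoxia, against 5 of 32 after hyperoxia. For the difference 12 of its 32 members had an unadjusted p under 0.05, where 414 of 14047 genes did, and none passed the adjustment over all probes. Ddit4 rose by 0.84 in normoxia against 1.71 after hyperoxia (difference 0.87, interval 0.25 to 1.49). The 3 genes with the smallest p for the difference were Ubxn11 (0.40, interval 0.21 to 0.59), Sars, a seryl transfer RNA synthetase (0.71, interval 0.36 to 1.05) and Cpox, an enzyme of haem synthesis (1.38, interval 0.69 to 2.07). Cpox had a change of 0.39 (SE 0.22, limma adjusted p = 0.287) after hyperoxia and fell by 0.99 in normoxia (adjusted p = 0.0132). Ace, which was called higher after hyperoxia, had a change of -0.07 in normoxia (adjusted p = 0.786, difference 0.61, interval 0.29 to 0.93).

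**Figure D3:**
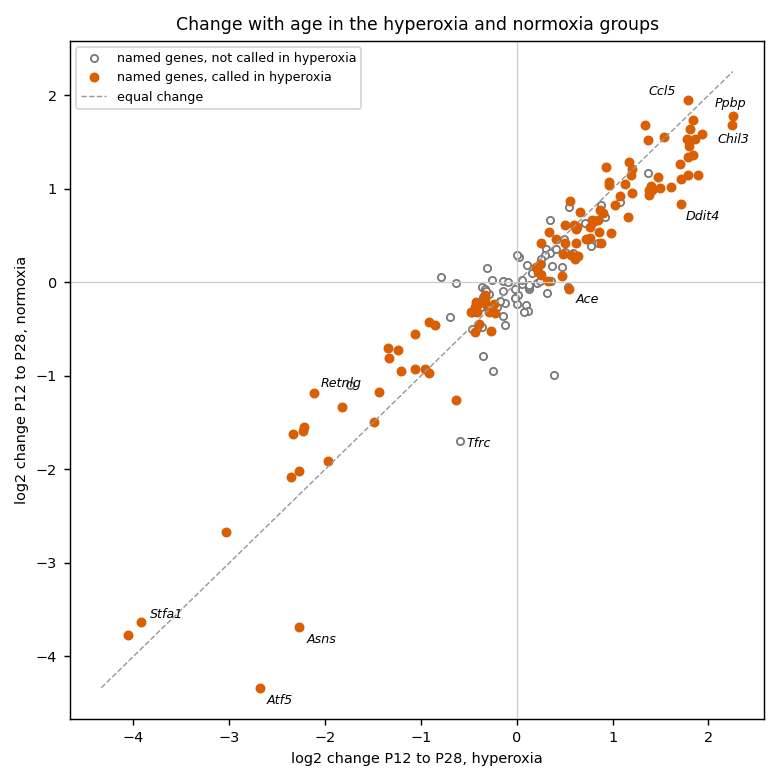
Log2 change from P12 to P28 in the hyperoxia groups (x axis) and in the normoxia groups (y axis) for the 184 genes named by the selection rule and tested in both; filled points were called after hyperoxia and the dashed line marks equal change. Of 112 filled points 111 have the same sign on both axes, Ace being the exception, and Atf5 and Asns lie furthest under the line.

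The values at P17 in the hyperoxia groups are given as a description, with no test. Ccr3, Ppbp and Hsph1 stood near their P28 level on P17, with means of 0.58 ± 0.47, 6.50 ± 1.31 and -0.29 ± 0.25 against 0.34 ± 0.18, 6.91 ± 0.70 and -0.39 ± 0.32 at P28. Chil3, Klrb1c and B2m were near their P12 level, with -0.48 ± 0.79, 0.44 ± 0.26 and 0.99 ± 0.72 at P17. Atf5 and Asns were higher at P17 than at either end.

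**Figure D4:**
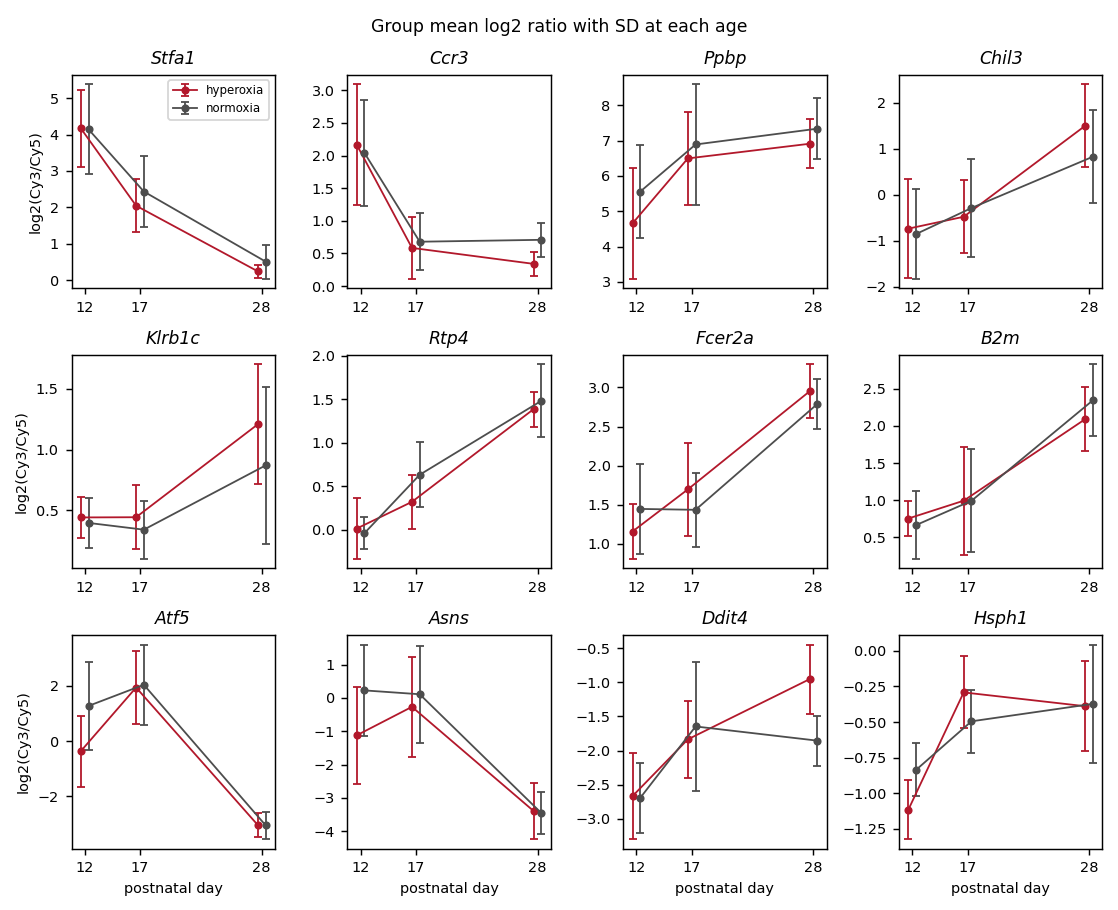
Mean log2(Cy3/Cy5) ratio with SD (y axis) of 12 genes against postnatal day (x axis) in the hyperoxia groups (10, 12 and 10 arrays) and the normoxia groups (11, 12 and 11 arrays), points set apart sideways for clarity. Stfa1 falls in steps from 4.17 over 2.05 to 0.25 after hyperoxia, Chil3 and Klrb1c lie near their P12 means at P17, and Atf5 is highest at P17.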

How the data were processed

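Blood mononuclear cell RNA was measured by the authors on 66 Agilent mouse arrays of 2 colours against a universal reference RNA. The deposited scanner files hold spot intensities, extracted with Feature Extraction 10.7.3.1 without normalisation between arrays, together with the same software's background-subtracted and dye-normalised signal intensities and 0 or 1 quality flags. The deposited matrix of log2 ratios was made by the authors from these processed signals and was used as an alternative only. The RNA extraction kit differs between the labels and the methods.

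Median intensities were background-corrected (limma 3.58.1, R 4.3.3, normexp with an offset of 50), loess-normalised within arrays with control spots at weight 0, and taken as log2(Cy3/Cy5) without spots marked as outliers (0.283%). Spots of 1 probe were averaged. P28 and P12 were compared with lmFit and eBayes on the arrays of these groups alone, with Benjamini-Hochberg adjustment over all tested probes, and the difference between hyperoxia and normoxia was tested as an interaction over 4 groups. In a test on simulated data for the hyperoxia comparison (29012 probes), 91% of 200 probes moved by 1 were recovered, and 8 unmoved probes were called. The simulated noise was independent between probes and arrays and had the same SD at both ages, unlike the real arrays, so the recovery there may be lower. Most called changes were also smaller than the step of 1. Permutation tests used 100000 resamples (SciPy 1.17.1). Of 56605 probes 32994 were matched by accession to RefSeq symbols (GRCm38.p6, used for names and promoter sequences), and each of 30 lists kept its matched members (582 of 591). Named genes are the 12 greatest rises and falls, of each list the first 2 tested members and up to 4 others of smallest p, Deptor and Nol4, and the 3 genes of smallest p for the difference, from which those described were taken. The genes, lists and tests were chosen with earlier results of these data known. The number of arrays limits the precision. The groups shared 6 of 9 slides, and 17 of the 20 arrays were scanned on the same day. Alternatives changed the normalisation, channel, background correction, filter, batch, weights, variance, covariates and arrays.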

Additional observations from a re-analysis of the deposited data

Results flagged for a closer look

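For each of 108 genes of the text and 2 technical values per array the highest and lowest array of each hyperoxia age group was compared with its neighbours, by the gap to the nearest array as a share of the group's range (limit 0.466 for 10 arrays). Of 220 groups 13 passed it (5.91%), where chance gives about 1 in 20. Of these, 4 were platelet genes on 1 array, P12 hyperoxia replicate 10, which was the lowest for Pf4 (gap share 0.639, log2 ratio 0.14 against a median of 3.99), Ppbp (0.572, at 0.84 against 4.89), Gp1ba (0.475, at 0.15 against 2.31) and Gp6 (0.469, at -0.31 against 1.97). Without that array the change was 1.83 for Ppbp, 0.47 for Pf4 and 1.11 for Gp6.

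Among P28 arrays, replicate 9 was lowest for the T cell genes Cd3e (gap share 0.522) and Lef1 (0.584). Replicate 8 was lowest for H2-K1 (0.574) and highest for Ddit3 (0.549). Single arrays were also highest for Tfrc (0.53), Stfa1 (0.472) and Serpina11 (0.467). Among P12 arrays, replicate 3 was highest for Nlrc5 (0.651) and replicate 9 lowest for Retnlg (0.492). The calls of Lef1, H2-K1, Ddit3, Stfa1, Serpina11, Nlrc5, Retnlg and Ppbp were not lost when any single array was left out.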

How the results depend on the processing

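With median centring the number of called probes was 558 after hyperoxia, of which 529 were among the 2883, and 958 in normoxia (889 higher, 69 lower). In normoxia it was 4479 with array weights, 4491 with the erythroid mean as a covariate and 3814 with the share of detected probes as a covariate. The other settings kept the counts within 1.5 times of 2883 and 2275. With the share of detected probes as a covariate 2131 of 2972 probes were higher after hyperoxia. Leaving out single arrays gave 2027 to 3116 probes after hyperoxia, 1718 to 2541 in normoxia and 0 for the difference. The arrays of scan day 1 alone gave 2141 probes after hyperoxia, and Eif2s3y as a covariate, a setting added after seeing the data, 2912.

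Of 108 genes fitted, 88 were called. No called gene changed sign under any alternative, 43 lost their call under at least 1 of 17 alternatives (30 with median centring, 12 with the scanner software's signals, 11 with slide as a block and 11 among the arrays of scan day 1) and 4 (Gp1ba, Pdgfa, Prdx6 and Gclc) when single arrays were left out. The cause was not tested. Dim genes such as the stefins and Prg2 were close to background at P28, and the sizes of their falls differed between settings.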
